A study of Ginkgo biloba with 2 samples.

Results

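miR166 and miR165 are microRNA (miRNA) families, short RNAs that guide an ARGONAUTE protein to matching transcripts. The names miR165 and miR166 were picked by name from the deposited tables of known miRNAs, and these 2 of 723 names are described here. Small RNA had been sequenced from mature leaves of the gymnosperm Ginkgo biloba, whose sexes are on separate trees, as 1 library from female and 1 from male trees of about 30 years, grown outdoors, with no treatment named. Whether several trees were pooled for a library is not stated in the labels, so a difference between the libraries cannot be told apart from a difference between trees. The names carry no arm, species or member letter, so each was taken as 1 family. The tables hold no leaf marker other than miRNAs, so the tissue label was not checked.

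In flowering plants miR165 and miR166 pair with transcripts of the class III HD-ZIP transcription factors, which specify the upper (adaxial) side of the leaf, and the miRNAs restrict them on the lower (abaxial) side. The pairing site and the miRNA are conserved across land plants, and miR165 was described in Arabidopsis as a near-identical sister of miR166. A second small RNA route to leaf polarity runs through miR390, which starts the production of small RNAs against auxin response factors.

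The sequences listed for both families are shown here because they carry the difference between the names. Each was the same in the female and the male table. Capitals mark the seed (bases 2 to 8) and base 17, counted from 1 at the 5′ end, and T stands for U as in the files.
miR166: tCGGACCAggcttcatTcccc
miR165: tCGGACCAggcttcatCcccc
Both were 21 bases long and began with T. They differed by 1 substitution, T17C from miR166 to miR165, with the 16 bases before it and the 4 bases after it in common. The seed was therefore shared between them, and no other name among 528 of the female and 530 of the male table held those 7 letters anywhere in its listed sequence. The nearest other name, read on either strand, was at least 7 edits away in both libraries, and the longest stretch in common with any other name was 8 bases for female and 9 bases for male listings. G or C made up 61.9% of the bases of miR166 and 66.7% of those of miR165, against a median of 42.9% over all listed sequences in either library. A 21-base sequence beginning with T was listed for 31.9% of the female and 32.0% of the male names.

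In reads, both libraries held far more miR166 than any other known name, while miR165 was far below it but well above the median name. Whether reads of different sequences stand for equal amounts of RNA was not tested. miR166 had 1142294 reads of 13193290 in the female library and 1022922 of 12137619 in the male library. These library totals were worked out from the deposited counts and levels, and which reads they include is not known. miR166 took 8.66% of this total in the female library (exact 95% interval 8.64 to 8.67%) and 8.43% in the male library (8.41 to 8.44%). miR166 ranked first in both, with 4.32 times the reads of miR1215 in female leaves (4.30 to 4.34) and 3.44 times in male leaves (3.43 to 3.46). The reads of the next 36 names of the female library had to be added up to exceed miR166, against the next 16 names of the male library.

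miR165 had 2494 female and 1992 male reads, a level of 189 and 164 RPM (reads scaled by the authors to the library total). The exact 95% intervals of these levels were 182 to 197 and 157 to 171 RPM. It ranked 60 of 530 names with female reads and 63 of 532 with male reads, above 88.7% and 88.2% of them, where the median name had 21 and 20 reads. Its neighbours in the female order, miR5211 with 2496 reads and miR6485 with 2484, did not differ from it beyond counting error. In the male order miR5376, next below with 1979 reads, did not either, while miR3434, next above with 2179, had an interval of 2088 to 2272 reads that lay above the 1905 to 2081 of miR165. All intervals here are for counting error alone, since there was 1 library per sex. No molecular identifiers that would separate PCR copies are mentioned in the labels, so each read was counted as separate.

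**Figure D1:**
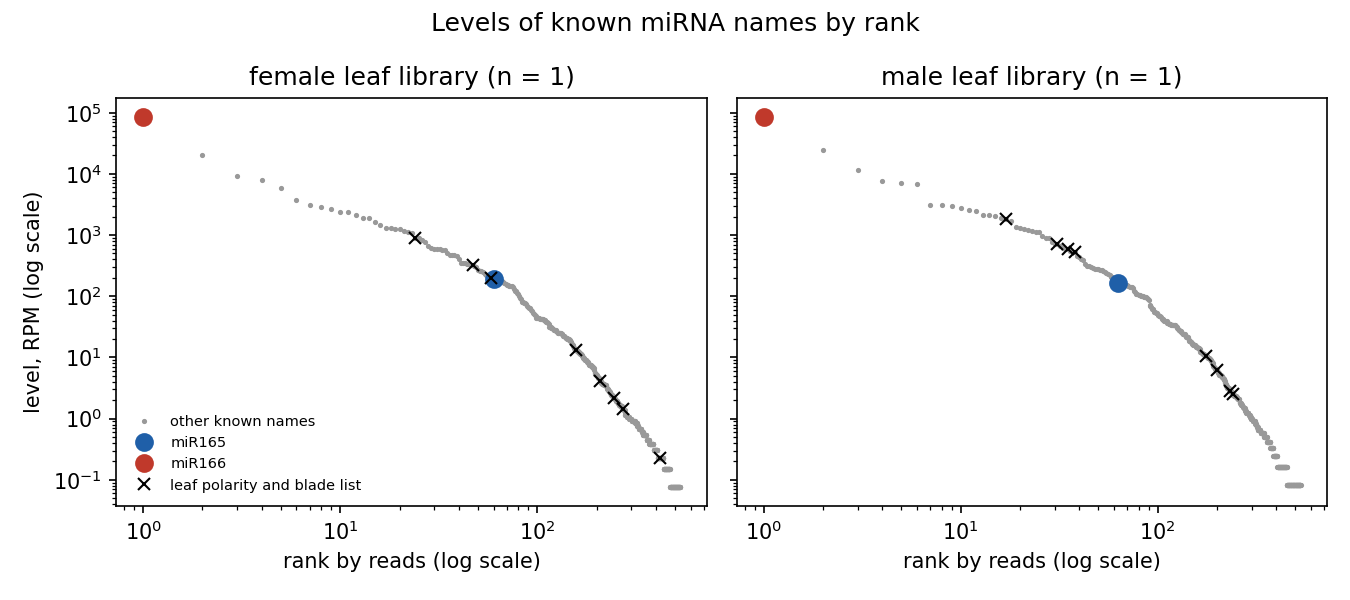
Level in RPM (log scale) of each known miRNA name with reads against its rank (log scale), in the female library on the left and the male library on the right, 1 library each. miR166 (red) stands first in both and miR165 (blue) at rank 60 and 63; crosses are the 8 other families of leaf polarity and blade growth.

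The 2 names were far apart in level in both libraries. The female library held 458 reads of miR166 for each read of miR165 (exact 95% interval 440 to 477), and the male library held 514 (491 to 537). miR165 thus made up 0.218% of their joint reads in female leaves (0.209 to 0.227%) and 0.194% in male leaves (0.186 to 0.203%). The odds of a joint read being miR165 were 1.12 times higher in the female library (1.06 to 1.19), a comparison within each library that no scaling of the libraries alters. The interval lies above 1 for these libraries, but the spread between trees is not known.

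The labels and files do not state how reads were split between names that differ by 1 base, so the reads of miR165 are uncertain to that extent. Names this close to each other were rare. In each library 3 pairs of names had listed sequences of equal length within 2 substitutions, and 2 of the 3 pairs differed by 1 substitution. In the female library the other such pair was miR482 and miR472, both directed at NBS-LRR disease resistance transcripts, with 7543 and 13 reads, so that miR472 stood at 0.172% of miR482 (0.0917 to 0.295%, from 13 reads), an interval that holds the 0.218% of miR165 relative to miR166. In the male library, where their listings were 4 edits apart, miR472 had 420 reads and stood at 4.57% of the 9185 reads of miR482. The other male pair with 1 substitution was miR894 and miR5077, with 25437 and 1328 reads, the lower at 5.22% of the higher, against 0.195% for miR165. In the female library, where their listings were 2 edits apart, miR5077 had 4619 reads and stood at 26.4% of the 17479 reads of miR894. The pairs were named after their values were seen. Whether reads of the abundant name were counted under the rarer one, by the split or by a misread base, was not tested.

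Between the libraries miR166 was nearly equal and miR165 slightly higher in the female library. On the scale of reads per library total, the female over male ratio of miR166 was 1.03 (exact 95% interval 1.025 to 1.030). That of miR165 was 1.15 (1.09 to 1.22), and that of their summed reads was 1.03, since miR166 supplies almost all of them. On the scale of log2 of (RPM + 1), the differences were 0.04 for miR166 and 0.20 for miR165, both short of 2-fold. Over the 232 names that reached 10 RPM in 1 library or both, 62.5% differed by 2-fold or more on this scale, 29.3% toward the female side and 33.2% toward the male side. Among the 96 of these whose female and male listings were identical, like those of both families, 27.1% differed by 2-fold or more. With 1 library per sex no test between the sexes could be made.

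The small excess of both names in the female library has to be read beside a shift of the other names to the male side. Over 117 names that reached 10 RPM in each library, the median log2 difference was -0.22, with quartiles of -0.60 and 0.30. miR166 lay 0.26 above this median and miR165 0.42 above it. Of these names, 44 had a higher log2 difference than miR166 and 39 a higher one than miR165, so neither lay at an end of the range. Only 2 of the 117 names were closer to equal than miR166. Scaling the libraries by the median ratio raised the log2 difference to 0.27 for miR166 and 0.43 for miR165.

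The share of miR166 among known miRNA reads showed a wider gap than its level did. It was 46.3% of known reads in female leaves (exact 95% interval 46.23 to 46.35%) and 41.8% in male leaves (41.75 to 41.87%). The level of miR166 itself was 86581 RPM in female and 84277 RPM in male leaves, while the 721 names other than miR165 and miR166 together stood at 100265 RPM in female and 117144 RPM in male leaves. These other names moved both ways. The 390 higher in the male library had 56736.0 RPM in female and 97025.3 RPM in male leaves. The 331 higher in the female library had 43529.4 and 20118.5 RPM. The share of miR165 was 0.101% of known reads from female and 0.0814% from male leaves.

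**Figure D2:**
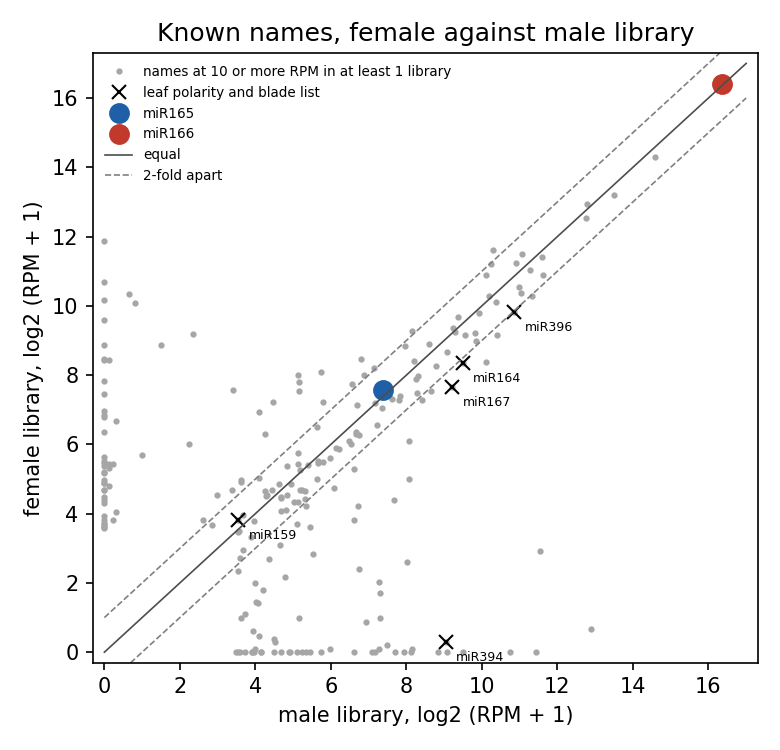
Each point is a known miRNA name that reached 10 RPM in 1 library or both, with log2 (RPM + 1) in the male library across and in the female library up; the solid line marks equal levels and the dashed lines 2-fold differences. miR166 (red) and miR165 (blue) lie next to the line of equal levels, and of the 5 labelled families of the leaf list 4 lie beyond 2-fold on the male side, 3 of them (miR396, miR167 and miR394) with different listed sequences in the libraries.

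With only 2 libraries, likeness of pattern can be measured only as nearness of the log2 difference, and many names are alike by it. Among names that reached 10 RPM in each library, the nearest to miR166 were miR2118, a family directed at NBS-LRR transcripts (145 and 142 RPM, 0.01 away), miR162, directed at the transcript of a Dicer-like enzyme (41.7 and 40.9 RPM, 0.01 away), and miR860 (1234 and 1163 RPM, 0.05 away). The nearest to miR165 were miR5213 (22.1 and 18.8 RPM), miR6162 (27.7 and 23.6 RPM) and miR2667 (21.8 and 18.5 RPM), each 0.02 away. For all 6 the female and male listings gave 1 and the same sequence, as they did for 83 of the 117 names that reached 10 RPM in each library.

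Other families known for leaf polarity or blade growth were lower in level than miR166, and for 4 of the 8 the sequence listed differed between the libraries. The list held miR390, miR160 and miR167, which act on auxin response factors directly or through other small RNAs, miR164, directed at NAC factors of leaf margins, miR396, directed at growth-regulating factors, miR319, directed at TCP factors, miR159, directed at MYB factors, and miR394, directed at an F-box transcript. Together these 8 families had 1444 RPM in female and 3721 RPM in male leaves, so that miR166 had 59.9 times their sum in female leaves (59.1 to 60.8) and 22.6 times in male leaves (22.4 to 22.9). Of that sum, miR396, miR167 and miR394, with different listings, made up 1101 RPM in female and 2978 RPM in male leaves. Against the 4 families with identical listings (miR159, miR164, miR319 and miR390; 340 and 741 RPM), miR166 had 255 times their sum in female leaves (248 to 263) and 114 times in male leaves (111 to 116). The listed lengths were 20 to 22 bases, and RPM was not divided by length. miR396, miR164 and miR167 stood above miR165 in both libraries, and miR394 did so in the male library.

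Of the 8 families, 5 reached 10 RPM in 1 library or both, of which 4 exceeded 2-fold toward the male side, where 33.2% of all names compared did so, and none toward the female side. Their median log2 difference was -1.16, against -0.27 over the 232 names compared. Only miR164 and miR159 of the 5 had identical listings: 1 of these 2 exceeded 2-fold, with a median of -0.45, beside the 27.1% of all names with identical listings. The 4 were miR164 (323 and 721 RPM), miR396 (901 and 1861 RPM), miR167 (200 and 593 RPM) and miR394 (3 and 6365 reads). For miR396, miR167 and miR394 the female and male listings were 11 to 12 edits apart and 6 to 7 edits from each other's reverse complement, whereas the listings of the 4 families that did not differ were 13 to 15 edits from their own reverse complement. Different molecules, nearer to opposite strands, were thus listed under these 3 names, and their ratios do not compare 1 sequence between the libraries. With scaling by the median ratio miR164 and miR396 came within 2-fold (log2 -0.93 and -0.82), which left 2 families on the male side. Over all names compared, 71 then exceeded 2-fold on the male side and 73 on the female side. miR159 had 172 and 130 reads, a female over male ratio of 1.22 (0.964 to 1.54).

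Below 10 RPM, miR390, the starter of the parallel polarity route, had 19 female and 76 male reads with the same listed sequence, a male over female ratio of 4.35 (2.60 to 7.61). miR390 thus lay on the other side from miR165 and miR166, as many names did. Of the 232 names compared, to which miR390 does not belong, 33.2% exceeded 2-fold toward the male side. miR319 had 29 and 34 reads, and its ratio was not distinguishable from equal at this depth (male over female 1.27, 0.754 to 2.17). miR160 had 55 and 31 reads with different listed sequences.

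**Figure D3:**
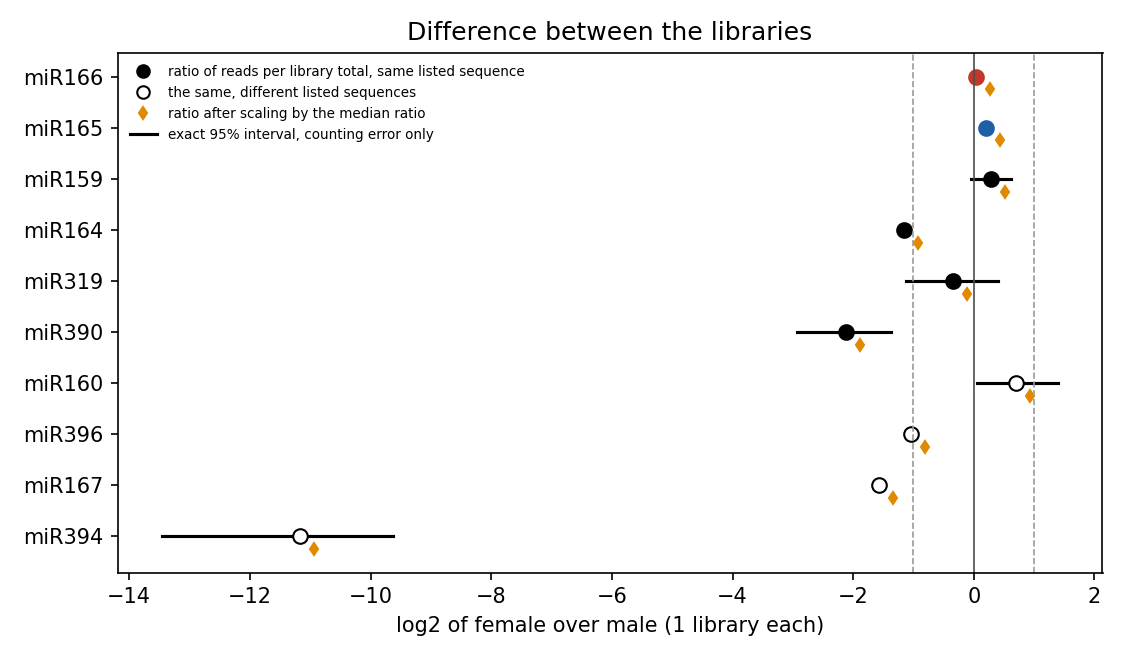
Log2 of the female over male ratio of reads per library total for miR166, miR165 and the 8 other leaf families, 1 library per sex; lines are exact 95% intervals of counting error, open circles mark families with different listed sequences, orange diamonds show the ratio after scaling by the median ratio, and dashed lines mark 2-fold. miR166 and miR165 lie close to 0 and just to its right, and miR164, miR390, miR396, miR167 and miR394 lie to the left of the lower 2-fold line before scaling.

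The predicted target lists of miR165 and miR166 were the same. These lists are the authors' predictions and not measurements, and the labels do not state which sequence entered the prediction. All 110 names with identical female and male listings and with targets in both libraries had identical target lists, against 11 of 89 names with different listings, so the identity of the lists between the libraries is no separate observation on these families. Each list gave 9 entries, of which 8 were distinct: 2 assembled leaf transcripts, Unigene20657 and Unigene20658, and 6 public nucleotide records, not named here. Unigene20657 was entered 2 times in each list, and such repeats occurred for 15 of 380 female and 11 of 340 male names with targets. All 8 were shared between the families, 100% of each list, despite the substitution at base 17. The deposited tables leave the annotation fields of the targets empty, so whether the 8 are class III HD-ZIP transcripts was not analysed here.

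No other known name listed any of the 8 targets, among 378 female and 338 male names with targets. Sharing of targets was uncommon overall: 0.365% of all pairs of names in female and 0.569% in male listings shared at least 1 target. Few names were as close in sequence as miR165 and miR166, so these shares describe pairs of mostly unlike sequences. Lists of the same content were found for 20 female and 36 male pairs, and miR165 with miR166 was 1 of them in each. Of the other pairs, 17 of 19 female and 31 of 35 male pairs had sequences more than 6 edits apart, and 17 and 35 had lists of 1 or 6 targets. The list of miR165 and miR166 was longer than the median of 3 distinct targets, though 79 female and 68 male names had more.

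Among miRNAs that the authors predicted in ginkgo, 2 of 155 female and 2 of 158 male arms with targets listed 1 of the 8 targets. In each library a 5p arm listed Unigene20657 and a 3p arm listed Unigene20658. Each of these arms had 2 targets, so the shared transcript made up 50.0% of the arm's list and 12.5% of the list of miR166. The sequences and levels of these arms could not be joined to the lists and were not used here.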

How the data were processed

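Small RNA was sequenced from 1 female and 1 male leaf library, prepared with standard Illumina protocols per the labels. The authors deposited, per library, raw read counts of known miRNA names beside 1 sequence, a level table, and lists of predicted targets with their number, another kind of value. The level table is named TPM by the authors, but its deposited values are RPM: each equals the count divided by 1 library total to within 6e-05 RPM. That total was worked out from the counts and levels. Neither labels nor files name the aligner, miRNA database, target predictor or a genome build, or how the 1 sequence per name was chosen.

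The members and lists were chosen with earlier results of these data known. Shares carry exact (Clopper-Pearson) and ratios exact conditional binomial 95% intervals. Names reaching 10 RPM in 1 library or both were compared on the log2 (RPM + 1) scale, and 2-fold was the threshold. Named were both families, the list of 8, the 3 names nearest in log2 difference, neighbours in rank, and names sharing 16 bases or a target. Alternatives were other pseudocounts, minimums, scalings, thresholds, denominators and match rules. The fold calls and ratio intervals were tested on simulated reads with counting error only. Spread between trees and the sequence, share and target results were not part of that test. Python 3.11.15, numpy 2.4.6, scipy 1.17.1 and matplotlib 3.10.9 were used. Levels of predicted miRNAs were not used.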

Additional observations from a re-analysis of the deposited data

How the results depend on the processing

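No paired analysis was possible because each sex had 1 library, and no library could be left out. The log2 difference stayed positive and short of 2-fold for miR165, miR166 and their sum under every pseudocount and scaling tried. For miR165 it was 0.43 with scaling by the median ratio, 0.31 by the total over known names and 0.43 by that total without both families. For miR166 these values were 0.27, 0.15 and 0.26, and for the sum 0.27, 0.15 and 0.26. Of the library total, miR165 took 0.0189% in female and 0.0164% in male leaves, miR166 8.66% and 8.43%, and both 8.68% and 8.44%. Of the reads of names with the same listed sequence, miR165 took 0.120% and 0.10%, miR166 55.2% and 51.4%, and both 55.3% and 51.5%. The names at least 2-fold apart, 68 on the female and 77 on the male side, became 117 and 132 with no minimum and 32 and 34 at a minimum of 100 RPM, as more or fewer names were compared. In the leaf list 4 families were higher in the male library. They became 2 with scaling by the median ratio and 3 by the total over known names. Over all names, the male side became 71 and 74 under these scalings, and the female side 73 and 70. The within-library ratio and the sequence match kept their values, which the alternatives tried could not change. The target overlap stayed complete, as it must for identical lists. Depth limits miR319, miR390 and miR160, at 19 to 76 reads.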
